A study of Canis lupus familiaris with 34 samples.

Results

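The inter-alpha-trypsin inhibitor genes and ITIH4-AS1, a human antisense transcript aligned to the dog genome, were described in mitral valves of 34 Cavalier King Charles Spaniels. The 8 genes, out of 23768 counted features, were the heavy chain genes ITIH1, ITIH2, ITIH3, ITIH4 and ITIH5, the antisense gene ITIH4-AS1, the light chain gene AMBP, and TNFAIP6. They were found by their symbol in the count table. ITIH4-AS1 was chosen by a measured value, since the study lists it among the genes that differ with heart failure. The other 7 genes were chosen for their function or name. All 34 dogs were of this breed and privately owned, and their valves were taken after elective euthanasia. They were about 10 years old on average, and ages varied by several years within both groups. The 10y-noCHF group held 19 dogs (10 females and 9 males) without congestive heart failure (CHF), ranging from no valve disease to advanced myxomatous mitral valve disease (MMVD). The 10y-MMVD-CHF group held 15 dogs (6 females and 9 males) in which MMVD had led to CHF, and which the study identified in part by their response to diuretics. A difference between the groups is therefore one between stages of a disease that nearly all of the dogs had, and diuretic treatment cannot be told apart from CHF.

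Inter-alpha-trypsin inhibitors are proteins of blood plasma that are made mainly in the liver. One or more heavy chains (ITIH1, ITIH2 or ITIH3) are joined through a chondroitin sulfate chain to the light chain bikunin, which is cut from the product of AMBP. TSG-6, the product of TNFAIP6, moves the heavy chains from bikunin onto hyaluronan, and this holds hyaluronan-rich matrix together. ITIH4 is an acute phase protein of the liver without a bikunin partner, and ITIH5 is a heavy chain made in tissues outside the liver. The mitral valve has a hyaluronan-rich and proteoglycan-rich middle layer that expands in MMVD.

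Total counts per dog ranged from 46185256 to 82361245. The reads of a pair were counted separately, so these counts are not independent molecules. All 9 markers of valve interstitial cells were measured in the valves, with a summed level of 13234 to 36091 CPM (counts per 1000000 counts of the library, with the library total adjusted by edgeR). CAV1047 and CAV614, both 10y-MMVD-CHF, stood apart from the other dogs. CAV1047 had the lowest total and the highest summed cardiomyocyte markers (59625 CPM), and CAV614 had the highest summed red blood cell genes (2223 CPM, with HBA1 and HBA2, whose counts were identical, taken once). The log2 fold change of ITIH4 with CHF over both sexes is also given without them.

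The first question was which RNA the counts of each gene hold. The features of the 8 genes are human transcripts aligned to the dog genome, and each was counted over its whole span, introns included. A read was counted on every feature it overlapped, with no use of strand. ITIH4-AS1 is on chromosome 20 of canFam4 (chr20:37408606-37408747, minus strand, 142 bases). It lies wholly inside the span of ITIH4 (chr20:37402553-37417904, plus strand, 15352 bases), so each of its reads was also an ITIH4 read, and reads from either strand cannot be told apart. Both lie inside the counted span of ITIH1 (chr20:37392800-37452386, minus strand, 59587 bases). That span also holds ITIH3 (chr20:37421663-37435664, minus strand) and MUSTN1 (chr20:37399591-37400160, plus strand), which encodes a small nuclear protein of muscle and skeleton. In RefSeq's annotation of the same build the dog gene ITIH1 covers only chr20:37438657-37452458, and the counted span begins 45857 bases before it. That annotation lists no dog gene named ITIH4-AS1, so this feature rests on the human alignment alone. The other heavy chain genes are on chromosome 2, ITIH2 at chr2:27416055-27451728 (minus strand) and ITIH5 at chr2:27481183-27559634 (plus strand), both inside the span counted for KIN. AMBP is at chr11:68747924-68761046 (minus strand) and TNFAIP6 at chr19:54369120-54385082 (plus strand).

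**Figure D1:**
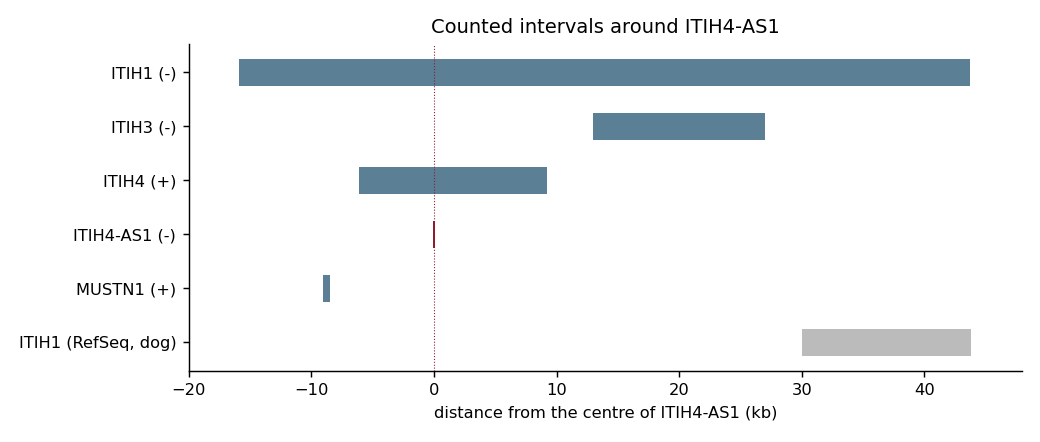
Spans over which reads were counted around ITIH4-AS1, drawn to scale by distance from its centre in kb, with the strand in parentheses; the grey bar is the dog gene ITIH1 of RefSeq. The span of ITIH1 covers all other genes shown, and that of ITIH4 covers ITIH4-AS1.

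The overlaps set most of the counts of ITIH1. ITIH4 gave 73.6% to 91.1% of the counts of ITIH1 in each dog (median 86.7%). ITIH4, ITIH3 and MUSTN1 together gave 91.0% to 97.7%. The rest was 343 to 6518 counts per dog (median 1181). It holds the reads of the dog ITIH1 gene together with all other reads of the span. RefSeq also places the protein-coding genes LOC102154212 (chr20:37392703-37406110) and LOC607080 (chr20:37394372-37400213) there, both reaching beyond the 570 bases of MUSTN1. Most counts of the feature named ITIH1 were thus counts of the ITIH4 span in all 34 dogs. RefSeq's LOC102154212 reaches into the ITIH4 span, which also holds the long non-coding RNA gene LOC119864681 (chr20:37412443-37416291). Reads of these genes cannot be told apart from those of ITIH4.

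ITIH4-AS1 covered 0.925% of the bases of ITIH4 and held 5.05% of its counts. Reads only partly inside ITIH4-AS1 raise this share of counts relative to the bases covered. Introns in the ITIH4 span would also raise it if ITIH4-AS1 lies in an ITIH4 exon, which was not examined. The part of either in the share was not tested. In single dogs the share of ITIH4-AS1 in the ITIH4 counts was 3.69% to 6.78% (median 5.11%). The dogs with CHF had 3.76% to 6.64% (median 5.60%), and those without had 3.69% to 6.78% (median 4.94%), so the groups overlapped over nearly the whole range. Among females the share was 5.88% ± 0.400 (SD, n = 6) with CHF and 4.86% ± 0.578 (SD, n = 10) without. Among males it was 4.86% ± 0.781 (SD, n = 9) with CHF and 5.26% ± 0.935 (SD, n = 9) without, the opposite order. No test is given for these shares, since they come from the contrast by which ITIH4-AS1 was chosen. ITIH5 gave 88.0% to 95.3% of the counts of KIN, so most reads counted on KIN lay in ITIH5.

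**Figure D2:**
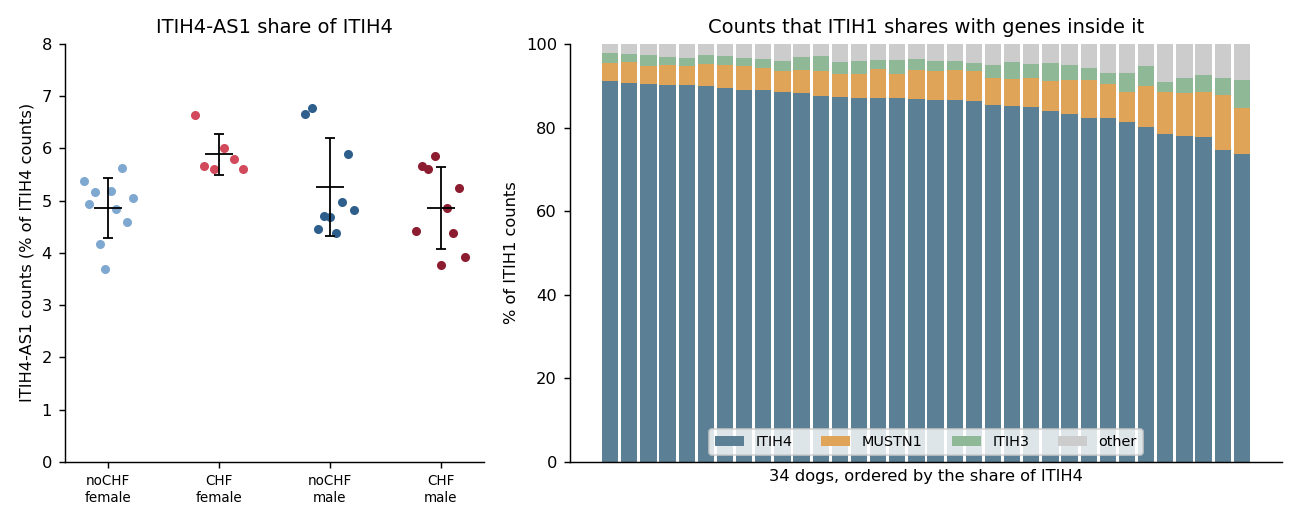
Left, counts of ITIH4-AS1 as % of ITIH4 counts in each dog (points) by group and sex, with mean and SD. Right, the % of ITIH1 counts that lie in ITIH4, MUSTN1, ITIH3 or elsewhere, 1 bar a dog; ITIH4 is at least 73.6% in all dogs.

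The 8 genes spanned a wide range of levels, compared here as median CPM per kb of counted span over the 34 dogs. The feature ITIH4-AS1 was highest with 127 CPM per kb, followed by ITIH4 with 27.1 CPM per kb. Each read of ITIH4-AS1 was also an ITIH4 read, so this order compares a part of the ITIH4 span with the whole. ITIH1 stood at 8.13 CPM per kb, mostly from ITIH4 as described. ITIH5 followed with 3.04 and ITIH3 with 0.941 CPM per kb. The hyaluronan-modifying TNFAIP6 was at 0.142 CPM per kb and ITIH2 at 0.00458 CPM per kb, while the median of AMBP was 0. ITIH4-AS1 exceeded ITIH4 in 34 of 34 dogs, and the same held for ITIH4 over ITIH1, ITIH5 over ITIH3, ITIH3 over TNFAIP6 and TNFAIP6 over ITIH2. ITIH1 exceeded ITIH5 in only 30 of 34 dogs and ITIH2 exceeded AMBP in 22, so these neighbours did not keep their order beyond the spread between dogs. The spans include introns, which can lower the level per kb of the long genes against that of the 142-base feature. Reads that lie only partly in a feature were also counted on it. Such reads raise the level per kb of a short feature more than that of a long gene, by an amount that was not measured. The rank of ITIH4-AS1 therefore does not show a separate transcript more abundant than ITIH4.

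Transcripts of the bikunin gene were nearly undetected. AMBP had 50 counts in all, between 0 and 8 per dog, and 24 of 34 dogs had none. A count of 0 allows up to 3 counts, or 0.0367 to 0.0650 CPM at the depth of these dogs (counting error only). AMBP did not reach the minimum of 100 counts and entered no test. ITIH2, whose product is a heavy chain partner of bikunin, had 414 counts, with 7 dogs at 0. ITIH6 had 2 counts. Of the family, ITIH4, ITIH5 and ITIH3 thus gave most of the RNA measured in the valve, with ITIH1 uncertain because of the overlap. The counts of ITIH4 include any RNA of the other RefSeq genes in its span.

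Liver markers were measured beside these levels, since ITIH4 is best known from hepatocytes. Of 12 hepatocyte markers 11 were in the table. The fibrinogen genes FGA and FGB had 0 counts in all dogs, the fetuin gene AHSG had 3 counts and the transthyretin gene TTR 32. Albumin (ALB) reached at most 0.364 CPM, against a lowest value of 76.1 CPM for ITIH4, neither adjusted for span length. The summed hepatocyte list ranged from 12.99 to 66.9 CPM in the 10y-noCHF group and from 13.7 to 78.9 CPM in the 10y-MMVD-CHF group. Its largest members were SERPINA1 (up to 74.9 CPM), HP (up to 25.4 CPM) and APOA1 (up to 22.4 CPM). None of the 6 tested markers of the list passed the test for CHF, which 0.118% of all features passed.

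The main comparison asked which of these genes differ between valves with and without CHF. ITIH4, the acute phase member, ranged from 92.2 to 573 CPM (median 340 CPM) in the 10y-noCHF group. Dogs of the 10y-MMVD-CHF group ranged from 76.1 to 1028 CPM (median 534 CPM). The groups overlapped, with CAV1047 below and 7 of 15 dogs with CHF above all dogs without it. Its mean was 543 ± 243 CPM (SD, n = 15) with CHF and 339 ± 141 CPM (SD, n = 19) without, a fitted 1.66-fold difference (log2 fold change 0.73, SE 0.25).

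ITIH4-AS1 ranged from 4.44 to 29.7 CPM (median 15.4 CPM) without CHF and from 5.05 to 45.0 CPM (median 26.0 CPM) with it. Of the 15 dogs with CHF, 14 were above the median of the 10y-noCHF group and 7 were above its highest dog. The fitted difference was 1.75-fold (log2 fold change 0.80, SE 0.23). The ITIH1 feature, with medians of 410 CPM without CHF and 614 CPM with it, differed by 0.71 on the log2 scale (SE 0.24). These 3 features share reads, and their differences are 1 observation of the same stretch of chromosome 20 rather than 3. They are given as a description with no test, since ITIH4-AS1 was chosen by this contrast. Without CAV614 alone the log2 fold change of ITIH4 was 0.64, and without CAV1047 alone it was 0.85. Without both dogs it was 0.76, and with the mean of the cardiomyocyte markers as a covariate it was 0.74 (0.80 for ITIH4-AS1).

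Other cell types were measured beside this difference. With HBA1 and HBA2 taken once, the 6 tested red blood cell genes all had a positive log2 fold change with CHF (median 0.98), but none passed the test. Their list summed to 4.34 to 528 CPM without CHF and 3.55 to 2223 CPM with it, and the highest dog, CAV614, was also the highest for ITIH4. Cardiomyocyte markers summed to 58.9 to 28597 CPM without CHF and 83.6 to 59625 CPM with it. Of these 20 markers 18 had a positive log2 fold change with CHF (median 0.22), and none passed. Of 9 valve interstitial cell markers 4 had a positive and 5 a negative one (median -0.06), and none passed. Of 7 endothelial markers 4 had a positive and 3 a negative one (median 0.03). Summed endothelial markers were 457 to 993 CPM without CHF and 643 to 1702 CPM with it, and 1 of 7 passed (VWF, a gene the study picked from these dogs). The lists of smooth muscle, macrophages, fast skeletal muscle, adipocytes and mast cells held no called gene. Of all features only 0.118% passed, so the lack of a call in lists this short says little about these cells. All 5 adipocyte markers had a negative log2 fold change with CHF (median -0.88, summed level 1.25 to 146 CPM without CHF and 2.79 to 108 CPM with it). Of 6 macrophage markers 5 had a positive one (median 0.20), of 5 mast cell markers 4 a negative one (median -0.43), of 6 smooth muscle markers 4 a negative one (median -0.21) and of 6 fast skeletal muscle markers 5 a negative one (median -0.24). The part of these cells in the difference of ITIH4 was not tested, other than by the covariate of cardiomyocyte markers. In bulk tissue, more cells of a type and more RNA per cell cannot be told apart.

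**Figure D3:**
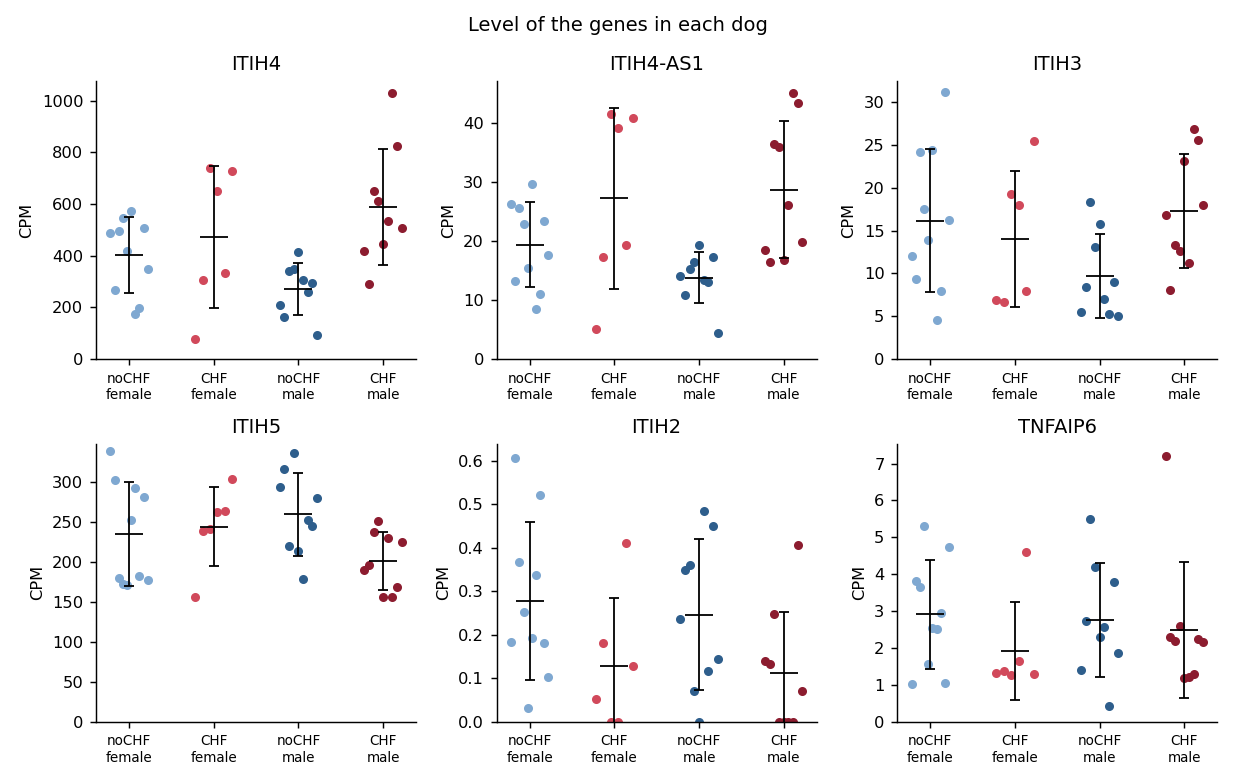
Level in CPM of 6 genes in each dog (points) by group and sex, with mean and SD (bars), on linear axes from 0. For ITIH4, 8 of 9 males with CHF lie above all males without, and TNFAIP6 stays at 7.20 CPM or below in all dogs.

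The other heavy chains gave no call. Of all features, 23 of 19568 (0.118%) passed the edgeR quasi-likelihood test for CHF at an FDR of 0.1. Among ITIH3, ITIH5, ITIH2 and TNFAIP6, 0 of 4 passed, none had an unadjusted p below 0.05, and DESeq2 called none of them either. ITIH3 was 4.60 to 31.1 CPM (median 11.98 CPM) without CHF and 6.65 to 26.9 CPM (median 16.9 CPM) with it. No dog with CHF was outside the range of the others (log2 fold change 0.38, SE 0.26, edgeR FDR 0.866). ITIH5, the heavy chain of tissues outside the liver, was 171 to 339 CPM (median 252 CPM) without CHF and 156 to 304 CPM (median 230 CPM) with it. Its log2 fold change was -0.17 (SE 0.11, edgeR FDR 0.855), and 4 dogs with CHF lay below all dogs without.

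The heavy chain gene ITIH2 and the hyaluronan transfer gene TNFAIP6 were low in both groups. ITIH2 was at 0 in 6 of 15 dogs with CHF and in 1 of 19 without, with medians of 0.0718 and 0.236 CPM. Its log2 fold change was -1.10 (SE 0.61, edgeR FDR 0.818), from a median of 10.5 counts per dog. TNFAIP6 was 0.438 to 5.51 CPM (median 2.56 CPM) without CHF and 1.19 to 7.20 CPM (median 1.65 CPM) with it. Most dogs with CHF, 12 of 15, lay below the median of the 10y-noCHF group, yet the log2 fold change of -0.35 (SE 0.29) had an edgeR FDR of 0.906.

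The CHF difference was then compared between the sexes. In males ITIH4 was 92.2 to 413 CPM (median 293 CPM) without CHF and 289 to 1028 CPM (median 534 CPM) with it. Of the 9 males with CHF, 8 were above the highest male without. In females it was 174 to 573 CPM (median 453 CPM) without CHF and 76.1 to 741 CPM (median 491 CPM) with it, and 3 of 6 females with CHF were above the others. The fitted log2 fold change of ITIH4 was 1.13 (SE 0.32) in males and 0.23 (SE 0.34) in females. The male value includes CAV614 at 1028 CPM, where the next male with CHF had 826 CPM. The female value includes CAV1047 at 76.1 CPM, where the next lowest female with CHF had 305 CPM. Fits by sex without these dogs were not run, so how far the gap between the sexes rests on them was not tested. ITIH4-AS1 had 1.06 (SE 0.31) in males and 0.49 (SE 0.33) in females.

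The neighbours of ITIH4 showed the same order of the sexes. ITIH3 had a log2 fold change of 0.84 (SE 0.33) in males and -0.20 (SE 0.36) in females. MUSTN1 had 1.29 (SE 0.32) in males and -0.31 (SE 0.35) in females. ITIH5 had -0.37 (SE 0.15) in males, where 0 of 9 dogs with CHF were above the median of those without, and 0.05 (SE 0.16) in females.

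The difference between the sexes was tested as an interaction, and no feature passed (0 of 19568, 0%). Before adjustment, 1178 features (6.02%) had a p below 0.05, among them ITIH1 and ITIH3 of the 7 tested genes of the family. The ITIH1 feature contains ITIH3 and drew most of its counts from ITIH4, so it is not a separate observation. DESeq2 called 3 features, none of them in this family. The interaction of ITIH4 was 0.90 (SE 0.47, edgeR FDR 0.830) and that of ITIH4-AS1 0.57 (SE 0.45, edgeR FDR 0.916). For ITIH3 it was 1.04 (SE 0.50, edgeR FDR 0.829) and for MUSTN1 1.60 (SE 0.47, edgeR FDR 0.815). ITIH5 had -0.42 (SE 0.22, edgeR FDR 0.830). The CHF differences of these genes were thus not shown to differ between males and females.

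**Figure D4:**
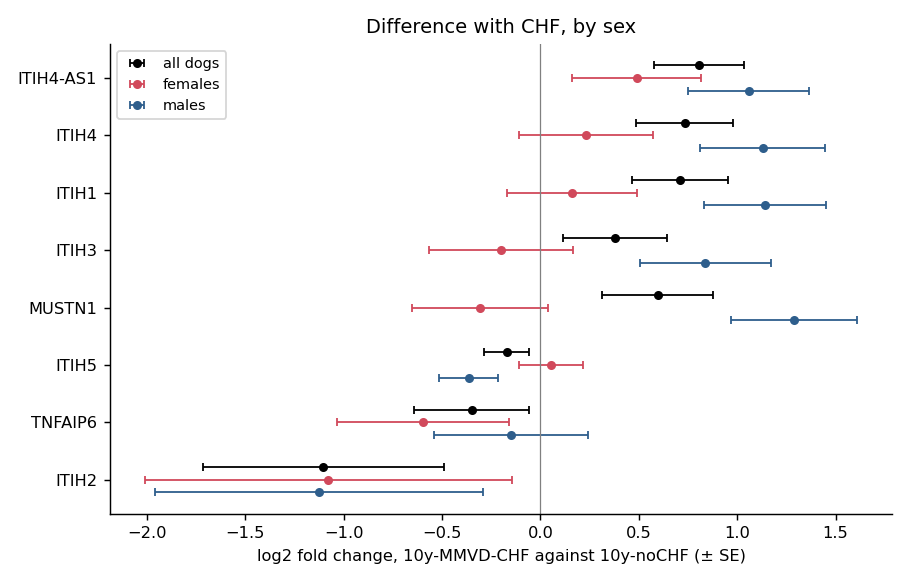
Log2 fold change of 10y-MMVD-CHF against 10y-noCHF with its SE (bars) for all dogs, females and males. In males ITIH4, ITIH1, ITIH4-AS1, ITIH3 and MUSTN1 lie between 0.84 and 1.29, and in females between -0.31 and 0.49.

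Males and females were also compared over both groups, a contrast that did not enter the choice of the genes. Of all features 28 of 19568 (0.143%) passed. None of the 7 tested genes of the family did, with edgeR or DESeq2, and none had an unadjusted p below 0.05. The log2 fold changes of males against females ranged from -0.30 for ITIH3 (SE 0.26) to 0.11 for TNFAIP6 (SE 0.29). ITIH4 had -0.20 (SE 0.25) and ITIH4-AS1 -0.25 (SE 0.23).

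The amount of heart muscle RNA in a valve sample differed widely between dogs. The mean of log2(CPM + 1) over the 20 cardiomyocyte markers ranged from 1.16 to 10.7, with a median of 6.72 without CHF and 7.40 with it. Of all features 38.8% had a slope on this mean that passed the test (edgeR, FDR 0.1, with sex and CHF in the fit), 19.2% falling and 19.6% rising with more muscle RNA. In the family 1 of 7 tested genes passed, ITIH5, which fell by 0.052 log2 units per log2 unit of the marker mean (SE 0.019, edgeR FDR 0.0321). The lowest dog for ITIH5, CAV1047, had 156 CPM and the highest marker mean of all dogs (10.7). The highest dog, CAV1041, had 339 CPM and a marker mean of 7.64, above the median of all dogs (6.77) and so against the direction of the slope. The call held when any 1 dog was left out. Within the groups the slope of ITIH5 was -0.051 without CHF (edgeR FDR 0.180) and -0.038 with CHF (edgeR FDR 0.355), neither of which passed.

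ITIH4 and ITIH4-AS1 had slopes of 0.014 (SE 0.045, edgeR FDR 0.844) and -0.0022 (SE 0.043, edgeR FDR 0.977). Their direction turned between the groups and when single dogs were left out. ITIH3 had 0.073 (SE 0.047, edgeR FDR 0.244), which passed without CAV614 (0.108, FDR 0.0783) and without both CAV614 and CAV1047 (0.127, FDR 0.033). TNFAIP6 had 0.091 (SE 0.051, edgeR FDR 0.182), and without CAV1872 it passed at 0.112 (FDR 0.079).

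**Figure D5:**
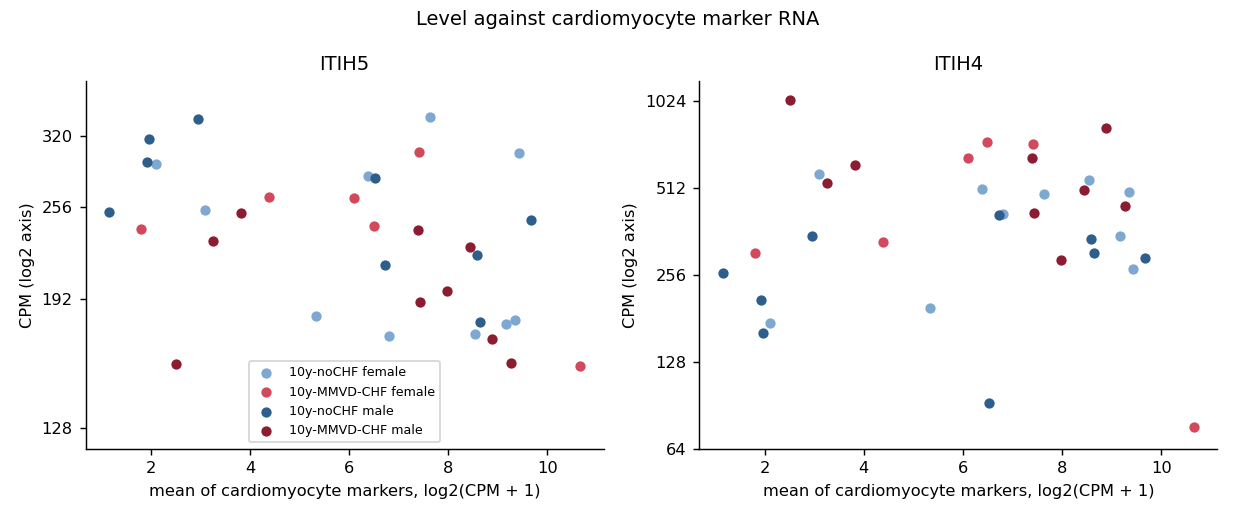
Level of ITIH5 (left) and ITIH4 (right) in CPM on a log2 axis against the mean of 20 cardiomyocyte markers in log2(CPM + 1), 1 point a dog, coloured by group and sex. ITIH5 falls with a slope of -0.052, and ITIH4 has a slope of 0.014 that did not pass the test.

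The hyaluronan pathway was described by a list of 27 genes for its synthesis, breakdown, receptors and binding proteins. All were in the table and 21 were tested. For CHF 0 of 21 passed with edgeR (0.118% of all features) or DESeq2 (0.327% of all features). The median log2 fold change of the list was -0.04 against 0.01 for all features. For sex 0 of 21 passed, against 0.143% of all features. The synthases HAS1, HAS2 and HAS3, which extrude hyaluronan through the cell membrane, had medians of 2.98, 24.7 and 13.9 CPM over all dogs. Their log2 fold changes with CHF were 0.0057, 6.5e-05 and -0.016, so the fitted levels of the groups were nearly equal. The hyaluronidases HYAL1 and HYAL2 had medians of 15.7 and 39.7 CPM, and CEMIP, which binds hyaluronan and drives its breakdown, had 25.6 CPM. CEMIP had a log2 fold change of -0.81, the largest among the degrading enzymes tested (edgeR FDR 0.630). The receptors CD44, LYVE1 and STAB1 had medians of 185, 77.5 and 194 CPM.

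Versican (VCAN), the large proteoglycan that binds hyaluronan in the valve, had the highest CPM of the list. Its median was 2530 CPM (1001 to 5088 CPM), and the levels of this list were not adjusted for span length. Its log2 fold change with CHF was 0.24 (edgeR FDR 0.866). PTX3, a pentraxin that TSG-6 and heavy chains bind in hyaluronan matrix, had a median of 4.47 CPM and a log2 fold change of -0.50 (edgeR FDR 0.889). With more cardiomyocyte marker RNA, 7 of 21 genes of the list fell and none rose. They were aggrecan (ACAN, slope -0.17, edgeR FDR 0.00338), the link proteins HAPLN1 (-0.13, FDR 0.0135) and HAPLN3 (-0.061, FDR 0.0274), versican (-0.081, FDR 0.026), HYAL1 (-0.059, FDR 0.0437), HYAL3 (-0.045, FDR 0.0133) and STAB1 (-0.046, FDR 0.0789). Falling genes were thus 33.3% of the list against 19.2% of all features, and rising genes 0 of 21 against 19.6%. No test of the list was made. Of 9 valve interstitial cell markers 7 fell in the same fit.

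Features that varied most like each gene over the 34 dogs were listed by Spearman's rho of log2(CPM + 1), after the means of CHF status and sex were removed. For each gene, features whose span overlaps its own were left out, since they share its reads: ITIH1 and ITIH4-AS1 for ITIH4, ITIH1 and ITIH4 for ITIH4-AS1, ITIH1 for ITIH3, and KIN for ITIH5. All points share a library and its depth, so these values are a description. Outside its overlaps, ITIH4 was most like ITIH3 (0.82), MUSTN1 (0.81) and STIMATE-MUSTN1 (0.78), followed by PRR15 (0.55) and IL12RB2 (0.54). The first of these are its neighbours on the chromosome, with gaps of 3758 bases to ITIH3 and 2392 bases to MUSTN1, and STIMATE-MUSTN1 contains MUSTN1. RefSeq's LOC102154212 spans MUSTN1, the gap after it and the start of ITIH4. Whether RNA of LOC102154212 was counted on both features was not tested. Outside its own overlaps, ITIH4-AS1 had the same neighbours in its list, ITIH3 (0.71), MUSTN1 (0.69) and STIMATE-MUSTN1 (0.67), then DOC2B (0.56) and BACE2 (0.55). With ITIH1 left out, ITIH3 was most like MUSTN1 (0.90), STIMATE-MUSTN1 (0.89), ITIH4 (0.82), DDX31 (0.72) and ITIH4-AS1 (0.71). For ITIH1, with all features of the locus that share its reads left out, the values were lower, from 0.58 (SRA1) through IL12RB2, ENTPD3 and DOC2B to 0.55 (PRR15).

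ITIH5 followed another set of genes. It was most like the transcription factor gene NFIX (0.82), GOLIM4 (0.82), the matrix gene CCDC80 (0.81), the metalloproteinase inhibitor gene TIMP2 (0.79) and the receptor gene NOTCH2 (0.78). Its own rho with ITIH4 was -0.14 and with ITIH3 -0.27. TNFAIP6 was most like RIPOR3 (0.66), the complement protease gene MASP1 (0.65), the collagen gene COL28A1 (0.64), PPP2R2B (0.63) and EYA3 (0.63). With ITIH4 it had -0.07 and with ITIH5 -0.11.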

How the data were processed

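Mitral valve polyA RNA of 34 dogs was sequenced as paired 150-base reads. The authors aligned the reads to canFam4 (STAR). The counts they deposited are unnormalized and come from featureCounts 2.0.3 on 2165 canine RefSeq features and 21603 human XenoRefSeq alignments. The deposited table also gives each feature's length in bases, used for levels per kb. Per the file headers, a read was assigned to every feature it overlapped, without strand, and pairs were not counted as 1 fragment. In the table, 1 column belongs to no sample used here and was left out.

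Groups and sex came from the labels, and nothing beyond them pairs samples. A total of 19568 features reached 100 counts over all dogs and were tested with edgeR 4.0.16 in R 4.3.3 (TMM, quasi-likelihood, sex as a fixed effect, Benjamini-Hochberg FDR 0.1 over all features). SEs were derived from the test statistic and are approximate. DESeq2 1.42.0, the tool of the paper, and limma 3.58.1 were alternatives, as were other normalizations and filters and leaving out each dog. Each test was checked on simulated data with larger effects than those given here for the genes of the family. The power to find smaller effects was not measured. The named genes were the 8 genes, features near ITIH4-AS1 or overlapping a member, the hyaluronan list, and the 5 features most like each gene with a median of at least 20 counts, among features with a mean of at least 1 CPM. Members and lists were chosen with earlier results of these data known, and ITIH5, ITIH2, ITIH3 and TNFAIP6 keep their FDR over all features. RefSeq's gene table of the same build matched 7 of the 8 genes, all but ITIH4-AS1. Intervals and limits for 0 counts cover counting error only.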

Additional observations from a re-analysis of the deposited data

Results flagged for a closer look

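In 28 tests of a gene in a group of one CHF status and sex, 2 dogs stood far from their group, both for TNFAIP6 in the 10y-MMVD-CHF group, and chance gives about 1 in 20. Among females, CAV1872 had 4.61 CPM where the next dog had 1.65 CPM. Among males, CAV1097 had 7.20 CPM where the next dog had 2.59 CPM. Without CAV1097 the log2 fold change of TNFAIP6 with CHF was -0.57, which still did not pass the test.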

How the results depend on the processing

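In all alternatives run, ITIH4-AS1, ITIH4, ITIH1 and ITIH3 had a positive and ITIH5, ITIH2 and TNFAIP6 a negative log2 fold change with CHF, and none of the 4 tested genes passed. ITIH4 ranged from 0.679 (no sex term) to 0.798 (limma voom) and ITIH4-AS1 from 0.749 to 0.867. With 1 dog left out they ranged from 0.642 to 0.852 and from 0.731 to 0.911. The count of features that differ with CHF was 64 with DESeq2 and 13 without the sex term, against 23. With 1 dog left out it ranged from 8 to 28. It fell by over 1.5 times without CAV1519 or CAV2102 (8), CAV1259 (9), CAV488, CAV648, CAV749 or CAV901 (10), CAV828 (11), CAV1196, CAV1790, CAV444 or CAV447 (13), CAV2156 (14), and CAV1097 or CAV494 (15). The interaction had 3 calls with DESeq2 and 0 with edgeR. Slopes on the cardiomyocyte markers passed for 4306 features within the 10y-noCHF group and for 4994 within the 10y-MMVD-CHF group, with fewer dogs in each. Leaving out each dog for these slopes was chosen after seeing the data. The slope of ITIH5 lost its call within each group (-0.0509 and -0.0381), while that of ITIH3 passed without CAV614 and CAV1047 (0.127). With 1 dog left out ITIH3 ranged from 0.0542 to 0.108 (without CAV614, where it passed) and TNFAIP6 from 0.0648 to 0.112 (without CAV1872, where it passed). The slope of ITIH4-AS1 turned positive in 10y-noCHF dogs alone (0.0308) and without CAV614 and CAV1047 (0.0379), and ranged from -0.019 to 0.0213 with 1 dog left out. That of ITIH4 was -0.0822 and that of ITIH1 -0.0619 in 10y-MMVD-CHF dogs alone, and ITIH4 ranged from -0.00154 to 0.0426 with 1 dog left out. For sex, the direction turned in the same way for ITIH2 (-0.43 to 0.105), ITIH5 (-0.0771 to 0.000507) and TNFAIP6 (-0.0584 to 0.275). Where not given, the cause was not tested. The features most like ITIH1, ITIH5 and TNFAIP6 depended on the measure, with 0 to 3 of 5 shared, and for ITIH4 3 of 5 were shared with Pearson's correlation. A canine RefSeq feature in place of the human one could not be tried, since each gene has 1 feature. No paired analysis was possible because the labels give each dog its own number and share none between groups.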
